A study of Mus musculus with 4 samples.

Results

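The genes of cellular zinc handling were examined in germinal vesicle (GV) oocytes of the mouse, which are arrested in prophase before maturation. They are the zinc importers of the ZIP family (Slc39a1 to Slc39a14), the zinc exporters of the ZnT family (Slc30a1 to Slc30a10), the efflux transporter gene Tmem163, the metallothionein genes Mt1 to Mt4 and the zinc-sensing transcription factor gene Mtf1. Members were matched by gene symbol, with earlier results of these data known, and 30 of the 53677 gene symbols in the deposited files matched. The libraries formed 2 groups, Ell3 KD (oocytes with knockdown of Ell3, a transcription elongation factor gene) and Ctrl (control oocytes), with 2 libraries per group and 5 oocytes pooled in each. All females had been given 7.5 IU of the gonadotropin PMSG 48 h before collection, and the sources used here state neither strain nor age nor how Ell3 was knocked down. They also do not say if replicate libraries had separate females as their source, so the p-values cover the spread among 4 libraries and that spread may be technical. Polyadenylated RNA was amplified by a Smart-seq2 protocol, which copies full-length transcripts from very small inputs.

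ZIP proteins move zinc into the cytosol from outside the cell or from organelles. Most ZnT proteins move zinc the other way, out of the cell or into vesicles and the secretory pathway. Metallothioneins are small cysteine-rich proteins that bind zinc in the cytosol. MTF1 is the nuclear factor that senses free zinc and switches on metallothionein genes and Slc30a1. Mouse oocytes take up zinc while they mature, hold much of it in vesicles under the cell surface and release it at fertilization, and zinc is needed for meiotic arrest at both prophase and metaphase II.

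Library totals were 89632815 and 65722415 counts in Ell3 KD and 45131278 and 48669267 in Ctrl, so the Ell3 KD libraries were deeper. A gene with no count lay below 0.0339 to 0.0656 CPM (counts per 1000000, with library totals scaled by the TMM factors of edgeR), taking 3 counts as the limit and covering counting error only. Ell3, the targeted gene, had 255 and 181 counts in Ell3 KD against 371 and 483 in Ctrl, or -1.66 ± 0.14 as the log2 fold change of Ell3 KD over Ctrl, called log2 change below (SE; edgeR adjusted p = 6.04e-10). Its exons share 65.6% of their length with Serinc4. The 8 oocyte markers summed to 16985 and 16934 CPM in Ell3 KD and 17722 and 17308 CPM in Ctrl, and all 8 were at 1 CPM or more. Of these 8, 1 was called higher, Oosp1 (edgeR adjusted p = 8.52e-11), and 3 lower, Gdf9, Zp1 and Ddx4 (edgeR adjusted p from 7.87e-06 to 0.000621). The 10 cumulus and granulosa cell markers summed to 51.1 and 53.5 CPM in Ell3 KD and 54.2 and 52.2 CPM in Ctrl, with Amh and Foxl2 at 0 in both Ctrl libraries and at 3 to 9 counts in Ell3 KD. Nr5a2 and Cyp19a1 made up most of that sum. Of the 7 tested, 2 were called higher and 1, Nr5a2, lower. Gja1, a gap junction gene, had 5.38 and 5.80 CPM in Ell3 KD against 2.58 and 2.39 CPM in Ctrl (edgeR adjusted p = 1.21e-06). Inha, the inhibin alpha gene, had 2.18 and 2.47 CPM in Ell3 KD against 0.941 and 1.13 CPM in Ctrl (edgeR adjusted p = 0.000363). The 6 theca and stroma markers summed to 3.23 and 3.42 CPM in Ell3 KD and 3.11 and 3.16 CPM in Ctrl. Within them, Dcn had 1.77 and 1.99 CPM in Ell3 KD against 0.766 and 0.952 CPM in Ctrl (edgeR adjusted p = 0.00122), while Acta2 and Star were lower in both Ell3 KD libraries and not called. The 8 blood markers summed to 1.43 and 1.25 CPM in Ell3 KD and 2.76 and 3.34 CPM in Ctrl, with 5 of them at 0 in every library. The 2 tested, Cd68 and Alas2, were both called lower (edgeR adjusted p = 0.000218 and adjusted p = 0.0203). The part of such cells in the results below was not tested.

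A few genes made up most of the zinc handling transcripts. To compare genes, CPM were divided by the length in kb of the longest annotated transcript. Slc30a3, known for loading zinc into synaptic vesicles in the brain, led by far. Its level was 322.3 and 301.2 CPM per kb in Ell3 KD and 328.7 and 305.8 CPM per kb in Ctrl, which ranked it 197 among 26788 genes with a count and a length. This was 93.7% and 93.2% of the sum per kb of the ZnT genes and Tmem163 in Ell3 KD and 92.998% and 92.443% in Ctrl. Next came the importer genes Slc39a10, with a mean of 58.1 CPM per kb over the 4 libraries, and Slc39a6, with 35.4 CPM per kb, followed by Mtf1 with 22.6 and Slc30a5 with 11.4 CPM per kb. All other members had a mean below 10 CPM per kb. Of the 30 members, 18 had a mean of at least 1 CPM and 26 had a count in every library. Slc30a8, which loads zinc into insulin granules, and Slc30a10, a manganese exporter gene, had no count in any library.

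**Figure D1:**
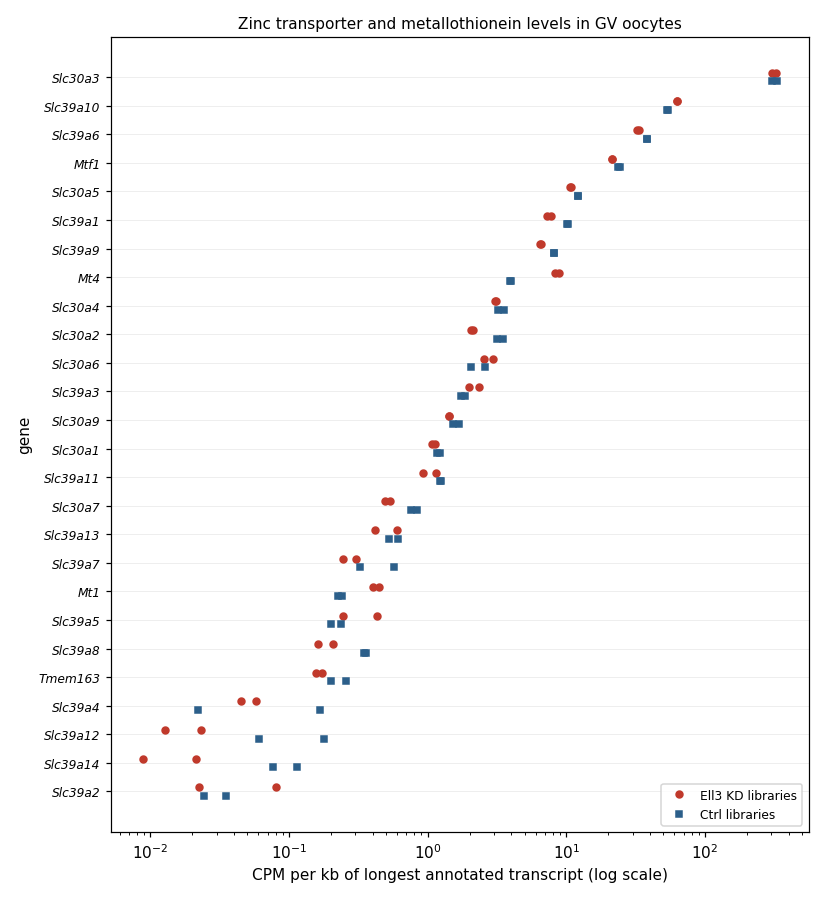
Level of each of the 26 members with a count in every library, as CPM per kb of the longest annotated transcript on a log axis, with circles for the 2 Ell3 KD libraries and squares for the 2 Ctrl libraries. Slc30a3 lies far above the rest, at 301.2 to 328.7 CPM per kb, and the circles of Mt4 lie right of its squares while those of Slc39a14, Slc39a8, Slc30a7 and Slc30a2 lie left.

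In the comparison of Ell3 KD with Ctrl, Mt4 and Slc39a10 rose and 9 members fell. The members that fell were the importer genes Slc39a1, Slc39a6, Slc39a8, Slc39a9 and Slc39a14, the exporter genes Slc30a2, Slc30a5 and Slc30a7, and Mtf1. Of the 30 members, 23 passed the filter on low counts and were tested, and 12 of these did not pass the threshold of an edgeR adjusted p of 0.05. Over all 17879 genes tested, 21.1% were called higher, 21.8% lower and 42.9% in either direction. Members called lower were 39.1% of those tested and members called higher 8.7%. Their median log2 change was -0.17, against -0.0024 for all genes tested. Against a change of 1.2-fold instead of 0, 5 of the 11 called members passed (Mt4, Slc30a2, Slc30a7, Slc39a1 and Slc39a14). Of the 23 members tested, 1 was thus called higher and 4 lower, beside 1240 higher and 1511 lower of all 17879 genes tested. Since each library pools 5 oocytes and was scaled to its own total, a change in some of the oocytes, in all of them or in their total mRNA cannot be told apart.

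**Figure D2:**
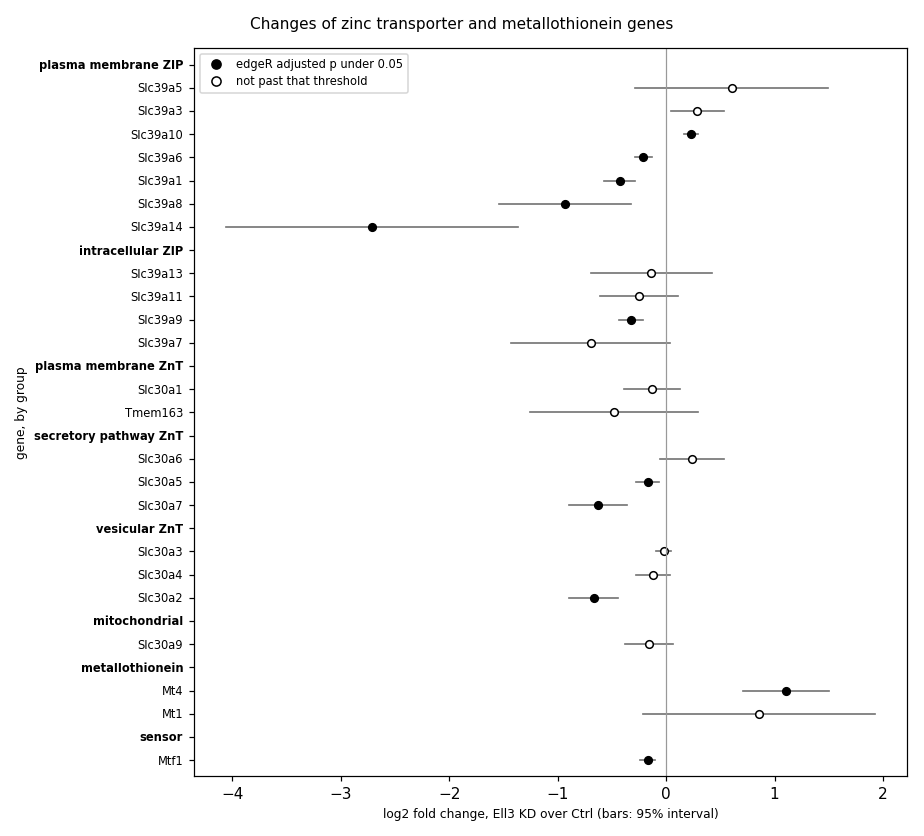
Log2 fold change of Ell3 KD over Ctrl for the 23 members tested, grouped by role, with bars for the 95% interval of the edgeR fit and filled circles for an adjusted p under 0.05. Mt4, at 1.11, stands furthest to the right and Slc39a14, at -2.71 with a wide interval, furthest to the left.

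The importer genes known for zinc uptake by maturing mouse oocytes, Slc39a10 (ZIP10) and Slc39a6 (ZIP6), moved in opposite directions. Slc39a10 had 344.0 and 346.4 CPM in Ell3 KD against 292.1 and 296.1 CPM in Ctrl, with both Ell3 KD libraries above both of Ctrl. Its log2 change was 0.23 ± 0.03 (SE; edgeR adjusted p = 1.72e-06). Slc39a6 had 125.5 and 129.3 CPM in Ell3 KD against 146.9 and 147.9 CPM in Ctrl, and here both Ell3 KD libraries were lower. The log2 change of Slc39a6 was -0.21 ± 0.04 (SE; edgeR adjusted p = 5.01e-05). The ratio of Slc39a10 to Slc39a6 counts, which does not depend on how libraries are scaled, was 2.74 and 2.68 in Ell3 KD and 1.99 and 2.00 in Ctrl. The mean ratio was thus 1.36 times as high in Ell3 KD as in Ctrl. With 2 libraries per group, a two-sided exact permutation test of such a ratio cannot give a p under 0.333. Slc39a10 spans chr1:46807544-46892852 (GRCm38, minus strand), and no annotated exon of another gene overlaps it or Slc39a6. Neither gene passed when tested against a 1.2-fold change (edgeR glmTreat adjusted p = 1 for both).

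**Figure D3:**
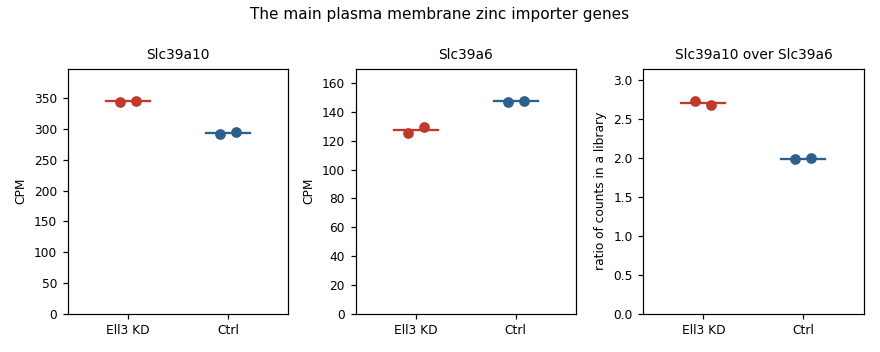
CPM of Slc39a10 and Slc39a6 and the ratio of their counts within each library, with points for libraries and lines for group means. The ratio is 2.74 and 2.68 in the Ell3 KD libraries and 1.99 and 2.00 in the Ctrl libraries.

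The sum over all 14 ZIP genes was 114.0 and 114.6 CPM per kb in Ell3 KD and 114.4 and 115.1 CPM per kb in Ctrl, with the libraries of the groups interleaved. Within that sum, Slc39a10 held 54.9% and 55.0% in Ell3 KD against 46.4% and 46.8% in Ctrl, and Slc39a6 held 28.3% and 29.1% in Ell3 KD against 33.1% and 33.1% in Ctrl. Together they held 83.2% and 84.1% in Ell3 KD and 79.5% and 79.9% in Ctrl.

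Among the other plasma membrane ZIP genes, Slc39a1 (ZIP1), a widely expressed importer gene, had 18.4 and 17.2 CPM in Ell3 KD against 24.2 and 24.0 CPM in Ctrl. The groups did not overlap, and the log2 change was -0.43 ± 0.07 (SE; edgeR adjusted p = 2.15e-05). Slc39a3 (ZIP3), of the same subfamily, had 8.90 and 7.58 CPM in Ell3 KD and 6.54 and 6.99 CPM in Ctrl. Its log2 change of 0.29 ± 0.12 (SE) just missed the threshold, at an edgeR adjusted p = 0.0516, but it was called higher in 5 of the 12 alternative analyses, including that without Ell3 KD replicate 2 (edgeR adjusted p = 0.0238). Slc39a8 and Slc39a14 encode importers of zinc, iron and manganese, and both were low. Slc39a8 had 77 and 44 counts in Ell3 KD, which is 0.869 and 0.680 CPM, against 67 and 75 counts in Ctrl, which is 1.47 and 1.52 CPM. It fell by 0.93 ± 0.30 on the log2 scale (SE; edgeR adjusted p = 0.0126), and the call was lost without Ell3 KD replicate 2 (edgeR adjusted p = 0.103), with DESeq2 (adjusted p = 0.0738) and against a 1.2-fold change (edgeR adjusted p = 0.0523). Slc39a14 had 4 and 7 counts in Ell3 KD against 18 and 29 in Ctrl, or 0.0451 and 0.108 CPM against 0.394 and 0.587 CPM, in spite of the greater depth of Ell3 KD. Its log2 change was -2.71 ± 0.65 (SE; edgeR adjusted p = 0.00149), and it was not called without Ell3 KD replicate 1 (edgeR adjusted p = 0.0621).

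The remaining plasma membrane ZIP genes were below 1 CPM on average. Slc39a5, an importer gene of the gut and pancreas, had 44 and 56 counts in Ell3 KD and 22 and 20 in Ctrl and did not pass (edgeR adjusted p = 0.273). Slc39a12, known from the brain, had 3 and 4 counts in Ell3 KD and 22 and 8 in Ctrl. It failed the low-count filter, and without that filter its edgeR adjusted p = 0.0106. Slc39a4, the intestinal importer gene, and Slc39a2 also failed the filter, with 14 and 8 counts in Ell3 KD against 21 and 3 in Ctrl for Slc39a4 and 5 and 13 in Ell3 KD against 4 and 3 in Ctrl for Slc39a2. Slc39a2 shares 4.38% of its exon length with Mettl17 on the same strand.

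Of the intracellular ZIP genes, which release zinc from the endoplasmic reticulum and Golgi into the cytosol, 1 of 4 fell, where 21.8% of all genes tested were called lower. This was Slc39a9 (ZIP9), with 35.1 and 35.6 CPM in Ell3 KD against 44.0 and 44.4 CPM in Ctrl. Its log2 change was -0.32 ± 0.05 (SE; edgeR adjusted p = 2.44e-05), and the groups did not overlap. Its exons share 4.52% of their length with the opposite-strand gene Erh, which had 294.3 and 308.3 CPM in Ell3 KD and 297.9 and 292.0 CPM in Ctrl. Slc39a11 had 3.17 and 2.57 CPM in Ell3 KD and 3.48 and 3.38 CPM in Ctrl. Slc39a11 and Slc39a13 had log2 changes of -0.25 and -0.14 that did not pass (edgeR adjusted p = 0.26 and adjusted p = 0.715). Slc39a13 had 1.48 and 1.04 CPM in Ell3 KD and 1.291 and 1.499 CPM in Ctrl, so its groups overlapped. Slc39a7 (ZIP7), the importer gene of the endoplasmic reticulum, had only 53 and 48 counts in Ell3 KD and 63 and 39 in Ctrl (edgeR adjusted p = 0.119, and adjusted p = 0.0223 without Ctrl replicate 2). It shares 80.7% of its exon length with the predicted gene Gm20427 on the same strand, which had 13 and 16 counts in Ell3 KD and 6 and 5 in Ctrl. The sources used here do not state how reads in shared exons were counted, so the level of Slc39a7 is uncertain.

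Slc30a3, the most abundant member, did not pass the test. It had 673.3 and 629.3 CPM in Ell3 KD and 686.6 and 638.8 CPM in Ctrl, so the libraries of the groups interleaved. The log2 change was -0.02 ± 0.03 (SE), with a 95% interval from -0.10 to 0.05 (edgeR adjusted p = 0.598), and its sign changed in 3 of the 12 alternatives. Its position is chr5:31086106-31108237 (GRCm38, minus strand), where no exon of another gene overlaps it. Of the other vesicular ZnT genes, Slc30a2, known for zinc secretion in the mammary gland, fell. Slc30a2 had 6.70 and 6.46 CPM in Ell3 KD against 9.909 and 10.997 CPM in Ctrl, a log2 change of -0.67 ± 0.11 (SE; edgeR adjusted p = 2.28e-05), and its call held in all 12 alternatives. Slc30a4, the gene of the lethal milk mutation of mice, had 17.1 and 16.8 CPM in Ell3 KD and 17.5 and 19.3 CPM in Ctrl and did not pass (edgeR adjusted p = 0.217).

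The ZnT genes of the early secretory pathway supply zinc to enzymes such as alkaline phosphatases. Slc30a7, whose product acts as a homodimer, had 4.78 and 4.47 CPM in Ell3 KD against 7.55 and 6.78 CPM in Ctrl. It fell by 0.63 ± 0.13 on the log2 scale (SE; edgeR adjusted p = 0.000323), a call kept in all 12 alternatives. Of its exon length 16.0% overlaps the opposite-strand genes Gm43106 and Gm6649, which had no count in any library. Slc30a5 and Slc30a6 encode the partners of a heterodimer. Slc30a5 had 42.6 and 43.1 CPM in Ell3 KD against 48.1 and 48.4 CPM in Ctrl, a log2 change of -0.17 ± 0.05 (SE; edgeR adjusted p = 0.00807). The call on Slc30a5 was lost without Ell3 KD replicate 1 (edgeR adjusted p = 0.0795) and with DESeq2 (adjusted p = 0.0513). Slc30a6 had 5.43 and 6.34 CPM in Ell3 KD and 5.58 and 4.37 CPM in Ctrl. Its groups overlapped, and its log2 change of 0.24 did not pass (edgeR adjusted p = 0.182), though it did without Ctrl replicate 1, at 0.42 (edgeR adjusted p = 0.0328).

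Without Slc30a3, the ZnT genes and Tmem163 summed to 21.6 and 22.1 CPM per kb in Ell3 KD and 24.7 and 24.998 CPM per kb in Ctrl. None of the tested exporter genes of the plasma membrane was called. Slc30a1 (ZnT1), the main zinc exporter of most cells and a target of MTF1, had 5.59 and 5.91 CPM in Ell3 KD and 6.47 and 6.08 CPM in Ctrl (log2 change -0.13, 95% interval from -0.39 to 0.13, edgeR adjusted p = 0.436). Its exons overlap the opposite-strand gene 1700034H15Rik over 8.92% of their length. That gene rose to 1.62 and 1.61 CPM in Ell3 KD, against 0.591 and 0.608 CPM in Ctrl (edgeR adjusted p = 0.00032). How reads of the shared stretch were counted is not stated, so their source is not known. Tmem163 had 48 and 39 counts in Ell3 KD and 32 and 44 in Ctrl (edgeR adjusted p = 0.323). Slc30a9, which exports zinc from mitochondria, had 8.12 and 8.18 CPM in Ell3 KD and 8.62 and 9.56 CPM in Ctrl and did not pass either (edgeR adjusted p = 0.246).

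By its counts, Mt4 was the main metallothionein gene of these oocytes, and it was higher in Ell3 KD. The level of Mt2 is uncertain, as described below, so the rank of Mt4 against Mt2 is uncertain too. Mt4 is otherwise known from stratified squamous epithelia, whereas Mt1 and Mt2 are the forms found in most tissues and Mt3 is a brain form. Mt4 had 290 and 229 counts in Ell3 KD against 73 and 77 in Ctrl, which is 3.27 and 3.54 CPM against 1.597 and 1.559 CPM. Its mean of 3.41 ± 0.19 CPM in Ell3 KD was 2.16 times that of 1.58 ± 0.0265 CPM in Ctrl (SD, n = 2 each). The log2 change was 1.11 ± 0.19 (SE; edgeR adjusted p = 4.96e-05), and the call held in all 12 alternatives, with values from 0.93 to 1.17. Mt4 is a short gene, with an annotated transcript of 398 bases, and 0.93 was its value after correction for transcript length and GC content. It spans chr8:94137197-94139031 (GRCm38, plus strand), and no other annotated exon overlaps it. The somatic cell markers Gja1, Inha and Dcn were also higher in Ell3 KD, at 2.25, 2.24 and 2.19 times their Ctrl means. No other tested marker of their lists was called higher. Nr5a2 was called lower, and Fshr, Acta2 and Star were lower in both Ell3 KD libraries but not called. The part of somatic cells in the Mt4 result was not tested.

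Mt1 had 39 and 31 counts in Ell3 KD against 12 and 12 in Ctrl, or 0.440 and 0.479 CPM against 0.262 and 0.243 CPM. Both Ell3 KD libraries lay above both of Ctrl, but at these low counts the log2 change of 0.86 ± 0.52 (SE), with a 95% interval from -0.21 to 1.93, did not pass (edgeR adjusted p = 0.192). Mt2 had 1 and 0 counts in Ell3 KD and none in Ctrl, and Mt3 had none in Ell3 KD and 2 and 1 in Ctrl, all at or under the limit of detection. The opposite-strand gene Gm45774, which overlaps 73.5% of the exon length of Mt2, had 6 and 4 counts in Ell3 KD and none in Ctrl. As the handling of shared reads is not stated, the level of Mt2 is uncertain. Of all metallothionein counts, with Mt2 as counted, Mt4 held 87.9% and 88.1% in Ell3 KD and 83.9% and 85.6% in Ctrl. The metallothionein sum was 8.65 and 9.34 CPM per kb in Ell3 KD and 4.34 and 4.18 CPM per kb in Ctrl. With Mt2 as counted, that sum was far below the ZnT and ZIP sums in every library.

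No tested gene beside the metallothionein cluster was called higher with Mt4. Within 100000 bases on either side, the other genes tested were Ogfod1, Bbs2 and Nup93. Bbs2 had 5.73 and 6.34 CPM in Ell3 KD against 7.55 and 8.47 CPM in Ctrl, a log2 change of -0.41 ± 0.12 (SE; edgeR adjusted p = 0.00744), and the call was lost without Ctrl replicate 2 (edgeR adjusted p = 0.0681) or Ell3 KD replicate 1 (edgeR adjusted p = 0.0855) and with DESeq2 (adjusted p = 0.0581). Nup93, a nuclear pore gene, had 222.3 and 220.9 CPM in Ell3 KD against 256.2 and 244.5 CPM in Ctrl, a log2 change of -0.18 ± 0.03 (SE; edgeR adjusted p = 0.000173). Ogfod1 had 7.12 and 6.77 CPM in Ell3 KD and 9.06 and 6.32 CPM in Ctrl and was not called (edgeR adjusted p = 0.421). Without Ctrl replicate 2, however, Ogfod1 was called lower, at -0.38 on the log2 scale (edgeR adjusted p = 0.0189).

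**Figure D4:**
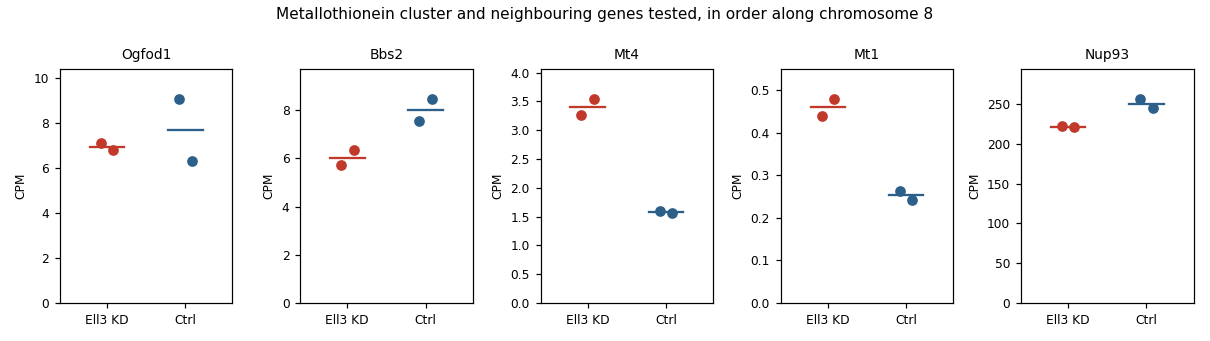
CPM of Mt4 and Mt1 and of the other tested genes within 100000 bases of the metallothionein cluster, in their order on the chromosome, with points for libraries, lines for group means and a separate axis for each gene. Mt4 and Mt1 are higher in both Ell3 KD libraries, while Bbs2 and Nup93 are lower in both.

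MTF1 binds metal response elements, whose core reads TGCACNC or TGCGCNC. These letters were searched on both strands, counted once per start position, from 250 to 31 bases before each RefSeq start (build GRCm38.p6). Of 32851 such windows in the genome, 18.7% held at least 1 match, and of the 31 windows of the 26 members with an entry, 11 did. Mt2, which had 1 count in all 4 libraries together but whose level is uncertain, had 3 matches, a number reached by 0.983% of all windows. Mt4 and Slc30a1 had 1 match each, Slc30a2 had 2, and Mt1, Mt3, Mtf1 and Slc39a10 had none in these windows. For Mt1, GENCODE also annotates starts 122 and 152 bases after the RefSeq start, and for Mt2 starts 46 and 242 bases after it. It also annotates a start 139 bases after that of RefSeq for Mt3 and 475 bases after it for Slc30a1. Distances and numbers of matches, including none for Mt1, thus hold for the RefSeq starts only. Bases before the later starts fall partly or wholly outside these windows. The windows of Mt4 (chr8:94136954-94137173), Mt2 (chr8:94172368-94172587) and Slc30a1 (chr1:191906531-191906750) are shown to set the metallothionein gene that rose beside one with almost no counts and beside the exporter gene classed as an MTF1 target. All 3 are on the plus strand, with matches in capitals, and GTGTGCA and GAGTGCA are matches read on the other strand.
Mt4: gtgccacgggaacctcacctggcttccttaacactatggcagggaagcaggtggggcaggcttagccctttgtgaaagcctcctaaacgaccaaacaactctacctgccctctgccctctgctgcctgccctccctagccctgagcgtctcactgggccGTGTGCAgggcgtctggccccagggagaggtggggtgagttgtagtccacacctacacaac
Mt2: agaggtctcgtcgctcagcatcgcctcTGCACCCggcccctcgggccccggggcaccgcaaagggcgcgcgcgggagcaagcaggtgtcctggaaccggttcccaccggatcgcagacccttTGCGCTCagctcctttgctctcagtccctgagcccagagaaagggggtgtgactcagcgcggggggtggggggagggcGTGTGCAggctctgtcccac
Slc30a1: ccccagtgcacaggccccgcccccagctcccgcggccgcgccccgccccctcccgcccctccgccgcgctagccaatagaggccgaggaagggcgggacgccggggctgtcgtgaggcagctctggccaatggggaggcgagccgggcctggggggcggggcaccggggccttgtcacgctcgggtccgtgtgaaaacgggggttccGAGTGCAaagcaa
The Mt4 match lies 91 to 85 bases before its RefSeq start and that of Slc30a1 43 to 37 bases before its RefSeq start. A match describes the letters only, and binding was not measured.

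Mtf1 itself was abundant and slightly lower. It had 162.5 and 161.4 CPM in Ell3 KD against 184.6 and 180.2 CPM in Ctrl, without overlap of the groups. The log2 change was -0.17 ± 0.04 (SE; edgeR adjusted p = 0.000304), and it was -0.09 after correction for transcript length and GC content (edgeR adjusted p = 0.0387). Exons of Mtf1 overlap the opposite-strand gene 1110065P20Rik over 8.09% of their length.

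Of 5 listed MTF1 targets that are not zinc transporters or metallothioneins, 3 were tested and 3 rose, where 21.1% of all genes tested were called higher. The list was chosen with earlier results of these data known. Selenow, a selenoprotein gene, had 368.5 and 367.4 CPM in Ell3 KD against 297.7 and 311.3 CPM in Ctrl (log2 change 0.27, edgeR adjusted p = 2.05e-07). Csrp1, a LIM domain protein gene, had 14.2 CPM in both Ell3 KD libraries against 9.54 and 8.12 CPM in Ctrl (log2 change 0.69, edgeR adjusted p = 2.7e-06). Gclc, which encodes the catalytic subunit of glutathione synthesis, had 3.18 and 2.71 CPM in Ell3 KD against 2.34 and 1.52 CPM in Ctrl (log2 change 0.62, edgeR adjusted p = 0.0193), and its call was lost without Ctrl replicate 2 (adjusted p = 0.244) or Ell3 KD replicate 1 (adjusted p = 0.153) and with DESeq2 (adjusted p = 0.118). The other 2, Ndrg1 and Pgf, failed the filter, with no count in Ctrl. In the deeper Ell3 KD libraries, Ndrg1 had 7 and 5 counts and Pgf had 7 and 0. Among 6 further regulators of metallothionein genes, none rose and 2 fell, or 33.3% against 21.8% called lower among all genes tested. Stat3 fell by 0.42 ± 0.04 on the log2 scale (SE; edgeR adjusted p = 5.35e-10), to 137.4 and 138.5 CPM in Ell3 KD against 185.5 and 184.9 CPM in Ctrl. Usf1 had a log2 change of -0.15 (edgeR adjusted p = 0.0238), a call lost without any 1 of the 4 libraries (adjusted p from 0.0548 to 0.194), with DESeq2 (adjusted p = 0.117) and after correction for transcript length and GC content (edgeR adjusted p = 0.102). Hif1a, the most abundant of them, lay at 208.2 and 209.6 CPM in Ell3 KD and 207.2 and 204.9 CPM in Ctrl and was not called (edgeR adjusted p = 0.672).

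Some channels that can also carry zinc were lower. Of 8 tested genes in a list of zinc-permeable channels and the zinc chaperone gene Cbwd1, 4 fell and 1 rose, with a median log2 change of -0.40, where 21.8% of all genes tested were called lower and 21.1% higher. Trpm7, the channel kinase gene, had 19.7 and 18.4 CPM in Ell3 KD against 26.7 and 26.6 CPM in Ctrl (log2 change -0.48 ± 0.07, SE; edgeR adjusted p = 2.7e-06). Trpv3 had 9.77 and 8.43 CPM in Ell3 KD against 13.3 and 14.6 CPM in Ctrl (-0.61 ± 0.10, SE; edgeR adjusted p = 1.56e-05). Cacna1h, a T-type calcium channel gene, had 11.80 and 11.02 CPM in Ell3 KD against 17.2 and 17.1 CPM in Ctrl (-0.59 ± 0.08, SE; edgeR adjusted p = 3.4e-06). TRPM7, TRPV3 and the channel of Cacna1h are known for calcium entry in mouse eggs, and for each of these genes both Ell3 KD libraries lay below both of Ctrl. The other called genes, Trpm3 (-1.26) and Trpm2 (2.29), were named after their values were seen and had means under 1 CPM. Trpm2 was not called without any 1 of the 4 libraries (edgeR adjusted p from 0.0906 to 0.212), nor Trpm3 without Ell3 KD replicate 1 (edgeR adjusted p = 0.14).

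Genes of zinc-linked egg proteins and zinc enzymes went different ways. Astl, which encodes ovastacin, the zinc protease of cortical granules that cleaves ZP2 after fertilization, had 567.7 and 555.3 CPM in Ell3 KD against 702.1 and 676.3 CPM in Ctrl. It fell by 0.30 ± 0.03 on the log2 scale (SE; edgeR adjusted p = 1.69e-08). Its substrate gene Zp2 had a log2 change of -0.05 (edgeR adjusted p = 0.165), and Fbxo43, whose product EMI2 binds zinc and holds eggs at metaphase II, one of -0.02 (edgeR adjusted p = 0.737), neither past the threshold. Of 8 zinc enzymes of the secretory pathway and cell surface, 3 rose and none fell, or 37.5% called higher against 21.1% among all genes tested. Alppl2, an alkaline phosphatase gene of early embryos, had 4.77 and 4.65 CPM in Ell3 KD against 3.46 and 2.53 CPM in Ctrl (log2 change 0.66, edgeR adjusted p = 0.00211). Alpl, the tissue-nonspecific alkaline phosphatase gene, had a log2 change of 0.52 (edgeR adjusted p = 0.0361), lost without Ctrl replicate 2 (adjusted p = 0.227) or Ell3 KD replicate 1 (adjusted p = 0.372) and with DESeq2 (adjusted p = 0.173). Ace had 0.406 and 0.263 CPM in Ell3 KD against 0.0437 and 0 CPM in Ctrl and was not called without Ell3 KD replicate 1 (edgeR adjusted p = 0.0527). The protease genes Adam17 and Adam10, the most abundant of this list, were not called (edgeR adjusted p = 0.81 and adjusted p = 0.702).

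Genes for other metals are given for comparison. Of 9 tested copper handling genes, 5 rose and 2 fell, with a median log2 change of 0.21. Among all genes tested, 21.1% were called higher and 21.8% lower. Cox17, which brings copper to cytochrome oxidase, had 60.2 and 61.2 CPM in Ell3 KD against 42.3 and 44.5 CPM in Ctrl (log2 change 0.48, edgeR adjusted p = 1.97e-08). The copper chaperone gene Atox1 had a log2 change of 0.37 (edgeR adjusted p = 4.03e-06) and Commd1 one of 0.21 (edgeR adjusted p = 0.000202). Of 11 tested iron handling genes, 4 rose and 3 fell, or 36.4% and 27.3%, with a median of 0.11. The ferritin subunit genes Fth1 and Ftl1 rose, with log2 changes of 0.30 and 0.27 (edgeR adjusted p = 2.98e-06 and adjusted p = 1.28e-05). Ireb2, which encodes an iron regulatory protein, rose as well, at 0.25 (edgeR adjusted p = 0.000204), and Slc11a2, a transporter gene for ferrous iron, had a log2 change of -0.18 (edgeR adjusted p = 0.000356).

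**Figure D5:**
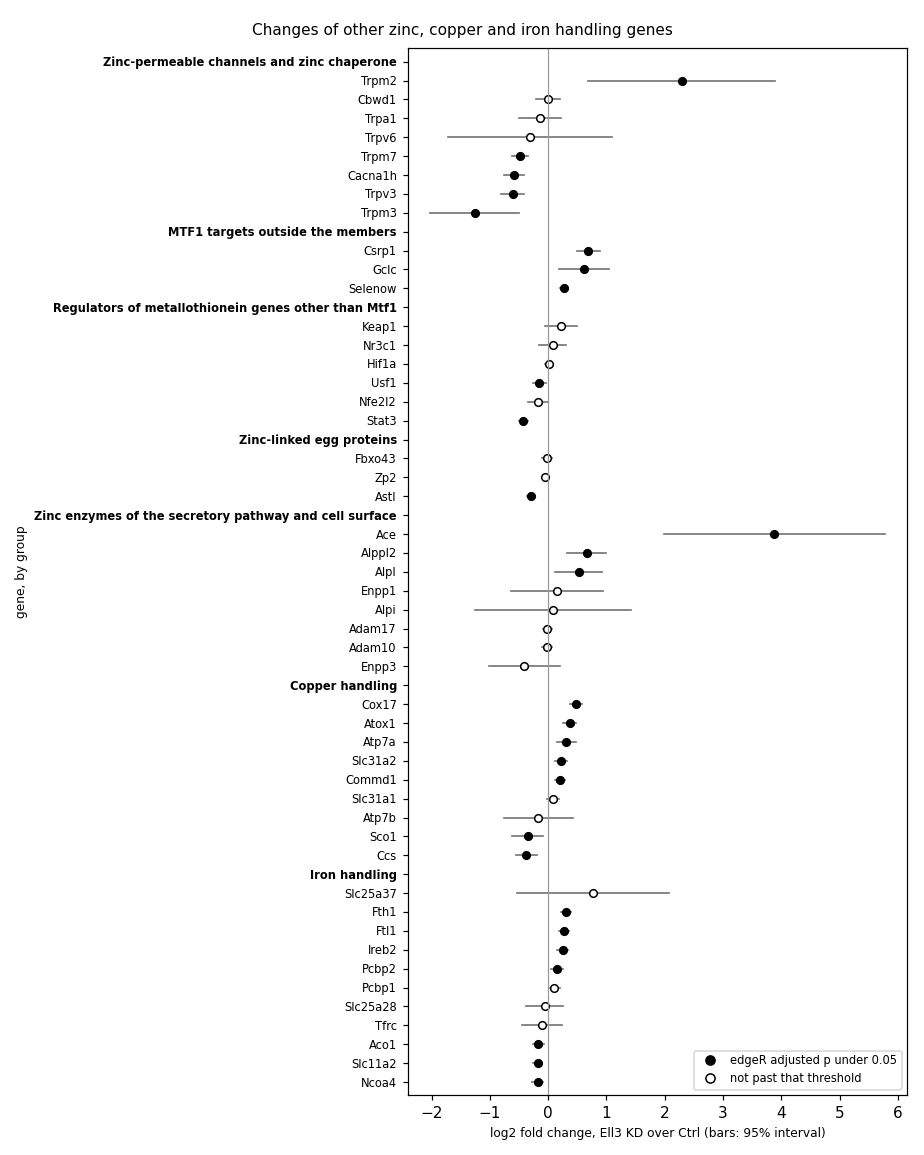
Log2 fold change of Ell3 KD over Ctrl for the tested genes of 7 further lists, with bars for the 95% interval of the edgeR fit and filled circles for an adjusted p under 0.05. Trpm7, Cacna1h, Trpv3 and Trpm3 lie left of 0, while Csrp1, Gclc and Selenow lie right of it.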

How the data were processed

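Per the labels' protocols, polyadenylated RNA of 5 GV oocytes per library was amplified for 16 cycles by Smart-seq2 and sequenced as 150-bp paired-end reads. The deposited values are raw counts per gene symbol. The aligner HISAT2 2.2.1.0, the counter featureCounts, FastQC 0.11.5 and the build mm10 are named in the submitters' processing notes. The sources used here do not state the annotation, the strand setting or the handling of shared reads.

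All 4 libraries entered a quasi-likelihood fit with group as the only term, in edgeR 4.0.16 under R 4.3.3 (filterByExpr, TMM, glmQLFit and glmQLFTest, two-sided). Benjamini-Hochberg adjustment was made over all genes tested. Standard errors were the log2 fold change over the square root of F. Alternatives used DESeq2 1.42.0 and limma 3.58.1, and the fits were tested on simulated data. Chi-square values within groups, 4.17 per degree of freedom in Ell3 KD and 4.08 in Ctrl, exceeded counting error, so libraries were kept separate.

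Positions and lengths came from GENCODE M21 on GRCm38 and promoter windows from RefSeq. Members with a mean of at least 1 CPM and the main zinc genes are given with their values. From each list, the 2 most abundant tested genes and up to 3 called genes with the smallest p are named. The members and lists were chosen with earlier results of these data known.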

Additional observations from a re-analysis of the deposited data

How the results depend on the processing

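The 12 alternatives were RLE size factors, DESeq2, limma-voom, no filter on low counts, a mean of at least 1 CPM, the replicate number as a block, a test against a 1.2-fold change, a correction for transcript length and GC content, and leaving out each of the 4 libraries. Among them, the test against a 1.2-fold change alone moved a count of calls by over 1.5 times. It called 1240 genes higher and 1511 lower, 1 member higher and 4 lower, and 5 listed genes of zinc, copper and iron handling higher and 5 lower. The test against no change called 3770 genes higher and 3906 lower, 2 members higher and 9 lower, and 16 listed genes higher and 12 lower. Mt4, Slc30a2, Slc30a7 and Slc39a1 kept their calls in all 12. Some values changed sign, and the causes were not tested. Corrected for length and GC content, Slc30a3 was at 0.034 and Adam17 at 0.012. With single libraries left out, log2 fold changes ran from -0.079 to 0.027 for Slc30a3 (above 0 at 0.026 and 0.027), from -0.43 to 0.087 for Slc39a13, from -0.055 to 0.024 for Adam17 and from -0.38 to 0.14 for Ogfod1. With the replicate block, 2 members were higher and 9 lower, with Mt4 at 1.11, and all 11 calls held. Deviations of same-numbered libraries had a correlation of 0.029, so the numbers were not taken as a pairing. The 95% intervals of Mt1, Slc39a5, Slc39a7, Slc39a8, Slc39a13, Slc39a14 and Tmem163, all with few counts, were wider than 1 log2 unit, so their changes are known less exactly than those of the abundant members.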
